A study of Mus musculus with 12 samples.

Results

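The comparison described here set haematopoietic stem cells of mice treated for 5 days with granulocyte colony-stimulating factor (G-CSF) against those of sham-operated mice, and it rested on 6 of the 12 arrays of the study. The 5-day mice had received G-CSF at 100 ug/kg per injection, every 12 h, for 9 injections, and the sham mice were labelled as sham-operated with no drug named. Each group held 3 male mice with 1 array per mouse, and the arrays were chosen by their labels alone. The other 6 arrays, from 3 mice given 4 injections of G-CSF over 2 days and 3 mice infused for 2 weeks with the CXCR4 antagonist POL5551 at 100 mg/kg per day, entered the fit so that all groups shared 1 estimate of the spread. All cells came from bone marrow enriched for Kit and were sorted as LSK SLAM cells, that is lineage-negative, Sca-1-positive and Kit-positive cells gated on SLAM family receptors. Injections are named in the labels for the treated mice alone and an operation for the sham mice alone, so the effects of drug, injection and surgery cannot be told apart. The labels used here state neither strain nor age, and each mouse is a separate animal.

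G-CSF is the cytokine that drives the making of neutrophils, and it is given to move stem cells out of the marrow into the blood. Its receptor, encoded by Csf3r, activates JAK kinases and the transcription factor STAT3, and STAT3 in turn raises Socs3, an inhibitor that damps the same receptor. In the marrow G-CSF also acts through other cells: it lowers the niche chemokine Cxcl12, whose receptor Cxcr4 holds stem cells in place, and it alters the cells that line the niche. A change in sorted stem cells can therefore come from the cells' own receptor or from their surroundings, and these cannot be told apart here. In sorted cells measured in bulk, a different share of some cells within the gate and a different amount of RNA per cell also cannot be told apart.

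Levels below are the log2 of a probe's signal minus the log2 of the 75th percentile of its array, so a level of 0 is the signal that 75% of probes stay under, and mice are given in the order 1, 2, 3. The 75th percentile itself ran from 2010 to 5579 signal units on the 5-day arrays and from 1638 to 3167 on the sham arrays, with 76.4% to 85.6% and 77.6% to 80.3% of probes well above background. Sham mouse 1 stood apart. Its rank correlation across genes with the other shams was 0.783 and 0.788, against 0.936 between those, and its median over 1542 probes for olfactory, vomeronasal, taste and keratin-associated genes, which blood cells should lack, was -1.60, against -3.30 and -3.45 in shams 2 and 3. The 5-day arrays were at -3.97, -3.87 and -3.25 on the same measure, below sham 1 and around the other shams. Many results are therefore also given without sham 1, though not all, and fits of separate probes are given with all arrays only. The 12 arrays lay on 6 slides and none held both a sham and a 5-day array, so slide and treatment were linked only through the POL5551 arrays. The markers of the sort were measured on all 5-day arrays: Kit at 2.66, 2.72 and 2.65, Ly6a (Sca-1) at 1.44, 1.09 and 0.45, and Slamf1 (CD150) at -0.63, -1.80 and -2.19. On the sham arrays Kit was at 2.88, 3.22 and 3.02, Ly6a at -1.84, 0.91 and 0.77, and Slamf1 at -4.12, -0.96 and -1.41, and sham 1 alone was low for both Ly6a and Slamf1. Cd48, which the SLAM gate is meant to exclude, was well above background on every array of both groups.

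After 5 days of G-CSF 22 genes differed from sham at an adjusted p under 0.05 (limma, Benjamini-Hochberg over 33179 genes), 16 higher and 6 lower. This is 0.0663% of the genes tested, 0.0482% higher and 0.0181% lower. The 16 higher ones included 13 genes with a symbol, and they encode parts of cytokine signalling (Socs3, Csf2rb2), cell surface proteins (Cd53, Selp, Muc1, Cltrn), secreted proteins (Wfdc17, Tgfbi), a lysosome positioning subunit (Borcs5) and stress, helicase, retinoid and calcium-sensor proteins (Gadd45g, Ddx11, Dhrs3, Rcvrn). The 6 lower ones were 5 unnamed transcripts or gene models and an olfactory receptor. In every one of the 22 the 3 mice of each group lay on their own side with no overlap. The 22 were chosen for a small p on these same arrays, so this is a description and no further evidence. The share of all genes without overlap is not given here. The sizes of the differences ran from 2.27 to 7.06 on the log2 scale, while the median over all genes was -0.13. At an unadjusted p under 0.05 there were 3690 genes, 1071 higher (3.23%) and 2619 lower (7.89%). Those counts became 1329 higher and 1341 lower without sham 1, so the excess of lower genes was not there without that array. Of the 2619 lower genes 57.2% were unnamed models or clones and 6.83% belonged to the families blood cells should lack, against 43.8% and 3.50% of all genes tested. Of the 1071 higher genes 37.9% were models or clones and 0.56% belonged to those families.

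The number of calls rested on single arrays. It was 2 higher and 1 lower without 5-day mouse 1, 1 higher and 0 lower without 5-day mouse 2, and 13 higher and 11 lower without 5-day mouse 3. Without 5-day mouse 2 Cd53 was the gene called, so the other 21 calls all depended on that array. Leaving out sham 1, 2 or 3 gave 15 higher and 4 lower, 10 and 5, or 33 and 22, and 13 of the 22 genes stayed called without sham 1. Csf2rb2, Muc1, Cltrn, Borcs5, Gadd45g, Ddx11 and Rcvrn were among those 13, with an adjusted p (limma) from 0.0173 to 0.0404 without sham 1. The fit on the 6 arrays alone called 1 gene, Cd53, and with slide as a fixed block limma called none, with 2489 genes at an unadjusted p under 0.05. Arrays centred on their median in place of the 75th percentile put the median of all genes at 0.03 in place of -0.13.

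**Figure D1:**
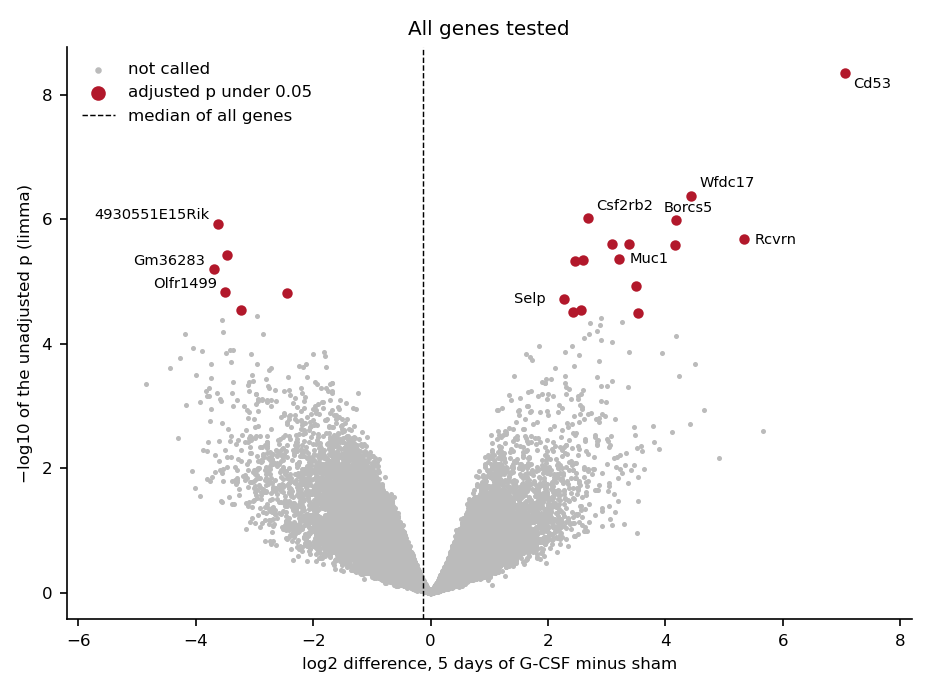
Log2 difference (5 days of G-CSF minus sham, x axis) against the -log10 of the unadjusted limma p (y axis) for each gene tested. Red points are the 22 genes called at an adjusted p under 0.05, and the dashed line marks the median of all genes, -0.13; Cd53 lies farthest to the upper right, at 7.06.

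The largest measured difference was that of Cd53, a tetraspanin of leukocyte membranes that organises receptors in the cell surface. Its level was 1.95, 1.94 and 1.10 on the 5-day arrays, against -6.01, -5.56 and -4.61 on the sham arrays. All 3 treated mice therefore lay above the level of 0, while only 1 of the 3 sham arrays had the probe well above background. The difference was 7.06 (SE 0.442, adjusted p = 0.000149), and it was 6.75 without sham 1 (adjusted p = 0.0012). Since shams 1 and 2 were at background, these values are differences from background there and not exact sizes. It was the one gene that stayed called whichever of the 12 arrays was left out, with an adjusted p of at most 0.00249. The probe sits at chr3:106565046-106566140 (mm9, minus strand), and its 60 bases cover 1095 bases of genome, so it reads across a gap between aligned blocks. It is shown because the largest difference rests on this probe alone.
Cd53 probe: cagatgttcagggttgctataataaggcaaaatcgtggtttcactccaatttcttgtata

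The genes of cytokine signalling come next. Socs3, the feedback inhibitor that STAT3 raises, was at 3.29, 3.34 and 2.79 after 5 days of G-CSF, against -1.0, 0.23 and 0.07 in sham (probe at chr11:117827480-117827539). Every treated mouse was well above 0 and the shams were near or below it. Socs3 rose 10.4-fold (log2 difference 3.37, SE 0.387, adjusted p = 0.00942), and by 2.99 without sham 1 (adjusted p = 0.0241). Csf2rb2, the beta chain of the mouse receptor for interleukin 3, was at 2.63, 2.57 and 2.45 on the 5-day arrays, against 0.01, -0.48 and 0.06 on the sham arrays (chr15:78113126-78113185). It rose 6.44-fold (log2 difference 2.69, SE 0.281, adjusted p = 0.00778), and its SD among the treated mice was 0.09. The receptor of G-CSF itself, Csf3r, did not pass the test: it was at 5.20, 5.29 and 5.42 in treated mice, against 6.86, 5.89 and 5.52 in sham, a difference of -0.79 (SE 0.347, adjusted p = 0.432) that was -0.40 without sham 1.

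Csf2rb2 has a close paralog, Csf2rb, which encodes the beta chain shared by the receptors of interleukin 3, interleukin 5 and GM-CSF. The Csf2rb2 probe and a Csf2rb probe (chr15:78181168-78181227) were compared over every window of 30 bases, and the best window, printed with the differing bases in capitals, was identical at 27 of 30 positions. Signal from the paralog in either probe was not tested, so which of the genes a difference belongs to is uncertain.
Csf2rb2 probe, bases 12 to 41: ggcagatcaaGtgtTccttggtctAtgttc
Csf2rb probe, bases 30 to 59: ggcagatcaaAtgtCccttggtctCtgttc

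The 4 tested probes of Csf2rb did not move together. With each of the 49499 tested probes fitted as its own feature, an alternative chosen after the data were seen, they differed by 3.50 (SE 0.462, adjusted p = 0.0228), 2.80 (SE 0.462, adjusted p = 0.0611), 0.57 (SE 0.362) and -0.87 (SE 0.487). The probe with 0.57 is the brightest and therefore stood for Csf2rb among the genes, where it was not called. The probe called lies at chr15:78179450-78179509 and was at 1.74, 1.98 and 1.71 in treated mice, against -2.32, -2.11 and -0.64 in sham.

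Sequence upstream of these cytokine genes was searched because STAT factors bind sites of the form TTCNNNGAA, which reads the same on both strands. In the 250 bases before the transcription start (RefSeq, GRCm38.p6) 2 of the 11 called genes that have a promoter in the table held a match, Socs3 and Csf2rb2, with 1 each. Over all 32851 promoters of that length 7.02% held at least 1. This share counts promoters and not genes, and Dhrs3, Borcs5 and Cltrn have more than 1 promoter each. The match is in capitals in both sequences, starting 154 bases before the transcription start of Socs3 (chr11:117969367-117969616, minus strand) and 15 bases before that of Csf2rb2 (chr15:78305722-78305971, minus strand). A match is a description of the letters, not a bound site.
Socs3 upstream: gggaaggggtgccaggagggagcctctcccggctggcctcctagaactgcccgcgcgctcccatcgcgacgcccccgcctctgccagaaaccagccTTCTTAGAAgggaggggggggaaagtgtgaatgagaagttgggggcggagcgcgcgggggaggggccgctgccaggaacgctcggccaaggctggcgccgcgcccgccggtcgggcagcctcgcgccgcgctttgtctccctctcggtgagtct
Csf2rb2 upstream: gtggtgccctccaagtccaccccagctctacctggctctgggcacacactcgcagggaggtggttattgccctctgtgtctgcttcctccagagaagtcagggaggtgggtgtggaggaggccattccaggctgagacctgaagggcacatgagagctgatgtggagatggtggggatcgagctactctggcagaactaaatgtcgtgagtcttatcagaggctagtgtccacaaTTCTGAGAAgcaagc

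**Figure D2:**
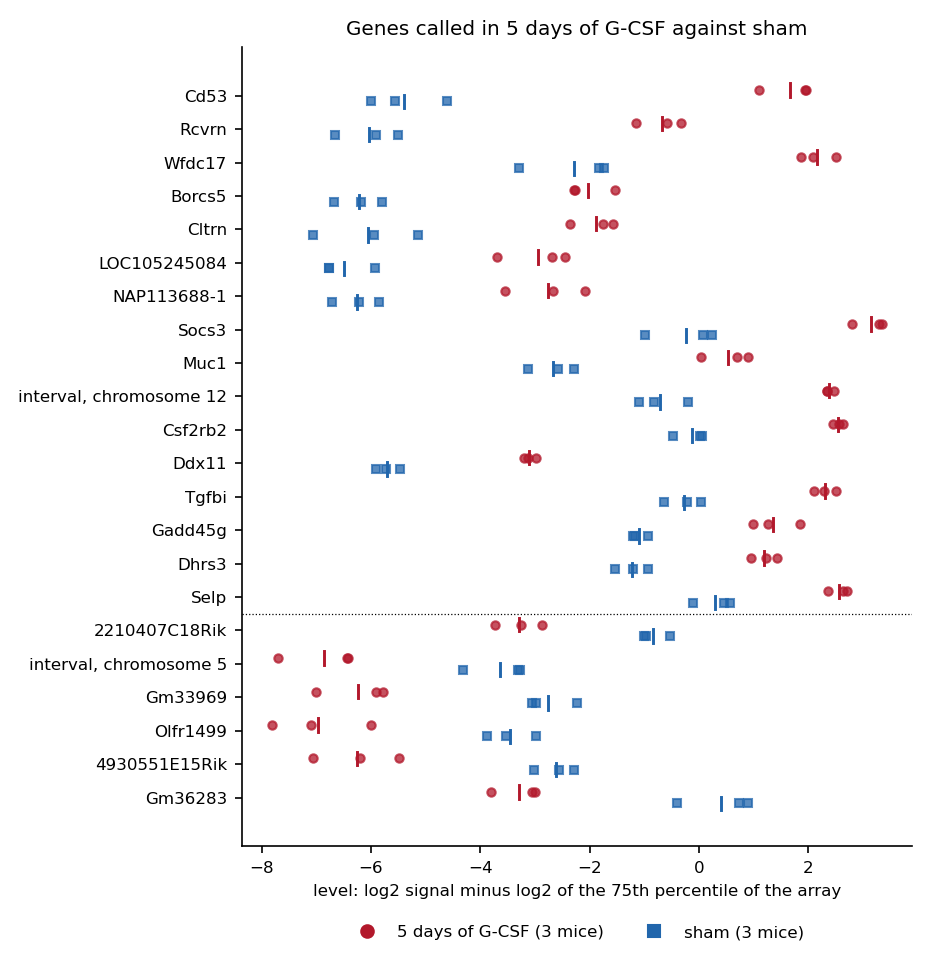
Level of each called gene (x axis, log2 signal relative to the 75th percentile of the array) in the 3 mice after 5 days of G-CSF (red circles, upper in each row) and the 3 sham mice (blue squares, lower in each row), with vertical bars for the means. Rows above the dotted line are the 16 higher genes and rows below it the 6 lower ones; the groups do not overlap in any row, and Gm36283 and 2210407C18Rik are the lower genes with a measured level in both groups.

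Among the surface proteins, Selp (P-selectin, which platelets and endothelium store and which lets leukocytes roll) was at 2.63, 2.70 and 2.36 after 5 days of G-CSF, against 0.45, 0.56 and -0.12 in sham (chr1:166074040-166074099). It rose 4.81-fold (log2 difference 2.27, SE 0.322, adjusted p = 0.0356). All 3 of its probes were higher, by 2.27, 2.39 and 2.50, and 2 of them were called in the probe-level fit. The adjusted p was 0.0522 without sham 1, and of the 12 fits that each left out 1 array 1 kept the call, with an adjusted p of up to 0.2. Muc1, a transmembrane mucin of epithelia that is also found on blood cells, was at 0.69, 0.89 and 0.03 in treated mice, against -3.12, -2.59 and -2.30 in sham, and rose 9.22-fold (log2 difference 3.21, SE 0.389, adjusted p = 0.0117). Its probe at chr3:89036007-89036974 also spans a gap in the genome.
Muc1 probe: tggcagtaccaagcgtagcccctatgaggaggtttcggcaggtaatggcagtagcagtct

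Cltrn, or collectrin, a kidney membrane protein that helps to carry amino acid transporters to the cell surface, was at -1.75, -1.57 and -2.36 after 5 days of G-CSF. On the sham arrays it was at -5.95, -5.13 and -7.06 and not well above background on any of them, so the sham values give only an upper limit (chrX:160556732-160556791). It was at least 6.74-fold higher (adjusted p = 0.00942). Such bounds compare the treated mean with a floor, taken on every sham array as the dimmest probe signal that passed the background test.

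Borcs5, a subunit of the BORC complex that moves lysosomes outward along microtubules, likewise stayed at background in all 3 sham mice. Its level was -2.29, -2.28 and -1.54 in treated mice, against -5.79, -6.67 and -6.19 in sham (chr6:134660740-134660799), and it was at least 6.11-fold higher (adjusted p = 0.00778). The file names this probe by the older symbol Loh12cr1.

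Wfdc17, which encodes a WAP-domain protein that macrophages secrete, was at 1.87, 2.51 and 2.09 after 5 days of G-CSF, against -1.83, -1.73 and -3.28 in sham (chr11:83518443-83519627). It rose 21.6-fold (log2 difference 4.43, SE 0.426, adjusted p = 0.00693), and by 4.66 without sham 1 (adjusted p = 0.0173). Of the 23 tested genes of a macrophage marker list that holds Wfdc17, it was the only one called, and 3 were higher and 1 lower at an unadjusted p under 0.05, against 3.23% and 7.89% of all genes. The summed signal of that list, in units of each array's 75th percentile, ran from 46.2 to 58.9 on the 5-day arrays and from 50.3 to 51.3 on the sham arrays. Tgfbi, a secreted matrix protein that TGF-beta induces, was at 2.51, 2.29 and 2.09, against -0.64, -0.21 and 0.03 in sham (chr13:56740460-56740519), and rose 5.94-fold (log2 difference 2.57, SE 0.382, adjusted p = 0.0483). Its adjusted p was 0.0947 without sham 1.

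Gadd45g, a stress-inducible gene whose protein slows the cell cycle, was at 1.84, 1.25 and 0.99 in treated mice, against -0.93, -1.21 and -1.17 in sham (chr13:51943733-51943792). It rose 5.52-fold (log2 difference 2.47, SE 0.301, adjusted p = 0.0117). All treated mice lay above 0 and all sham mice below it. Ddx11, a DNA helicase that keeps sister chromatids together, was at -2.97, -3.21 and -3.13, against -5.90, -5.47 and -5.73 in sham, where no array had it well above background (chr17:66500580-66500639). It was at least 2.91-fold higher (adjusted p = 0.0117).

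Dhrs3, an enzyme that turns retinal back into retinol and so limits retinoic acid, was chosen here after its values were seen, since the naming rule stops at 10 genes a side. It was at 1.43, 0.94 and 1.22 after 5 days of G-CSF, against -0.92, -1.54 and -1.20 in sham (chr4:144517485-144517544). It rose 5.34-fold (log2 difference 2.42, SE 0.361, adjusted p = 0.0483), with 0.0577 without sham 1, and its other probe was 3.40 higher (SE 0.569, adjusted p = 0.0655). Rcvrn, or recoverin, a calcium sensor of photoreceptors, was at -1.15, -0.58 and -0.32 in treated mice, against -5.91, -6.67 and -5.51 in sham, where it was not well above background (chr11:67516723-67516782). It was at least 15.6-fold higher (adjusted p = 0.00942).

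The remaining 3 higher calls have no gene symbol and were chosen after their values were seen. The probe of an intergenic interval on chromosome 12 (110842154 to 110883594, mm9, forward strand) was at 2.35, 2.46 and 2.33 after 5 days of G-CSF, against -0.82, -0.21 and -1.10 in sham, and rose by 3.09 (SE 0.354, adjusted p = 0.00942). The transcripts NAP113688-1 and LOC105245084, neither of them well above background on a sham array, were at least 3.68-fold and 3.24-fold higher (adjusted p = 0.0262 and 0.0485). Without sham 1 their adjusted p was 0.0505 and 0.0656, and LOC105245084 kept its call in 1 of the 12 fits that left out an array.

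The chromosome 12 interval lies in the imprinted Dlk1-Meg3 region, where the maternal chromosome makes the long noncoding RNAs Meg3, Rian and Mirg. Its probe at chr12:110865304-110865363 shares its last 21 bases with the first 21 of a Rian probe at chr12:110865343-110872442, in capitals, and the Rian probe goes on to another genome block. They are shown because the files give them different names but they read overlapping sequence.
chromosome 12 interval probe: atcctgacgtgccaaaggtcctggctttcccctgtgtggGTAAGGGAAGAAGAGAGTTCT
Rian probe: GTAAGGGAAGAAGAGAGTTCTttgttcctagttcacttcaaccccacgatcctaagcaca

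The Rian probe was at 1.32, 1.57 and 1.39 after 5 days of G-CSF, against -3.44, -3.49 and -5.73 in sham, and it was 5.64 higher in the probe-level fit (SE 0.640, adjusted p = 0.0114), with 2 of 3 sham arrays well above background. The other Rian probe, the brighter, was 1.28 higher (SE 0.418, adjusted p = 0.341). A second probe of the same interval was 3.24 higher (SE 0.907, adjusted p = 0.295), also with 2 of 3 sham arrays well above background, and one of an overlapping interval on the reverse strand 2.29 higher (SE 0.456, adjusted p = 0.134). The remaining 3 tested probes inside the interval, the transcript BB524261 and both strands of a shorter interval, differed by -0.17 (SE 0.537), 0.36 (SE 0.411) and 0.20 (SE 0.462). For Meg3 the 5 tested probes differed by -0.12, 1.01, 1.90, 2.60 and 2.67, and for Mirg the 2 tested probes differed by 0.61 and 0.81, with no call in either gene. The probe called lies across a gap in the genome like that of Cd53, and the brighter Rian probe does not.

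Each probe fitted on its own gave 36 calls among 49499 probes (0.0727%), 28 higher (0.0566%) and 8 lower (0.0162%), in 35 genes. All 22 genes called above were among those 35, and 13 more were called by a probe that is not the brightest of its gene. A sterol-esterifying enzyme, Soat1, had a probe that was at background in all 3 sham mice and at least 19.4-fold higher after 5 days of G-CSF (adjusted p = 0.00297), while its 4 other tested probes were measured in all mice, 0.87 to 1.69 higher on the log2 scale and not called. For Vldlr, a lipoprotein receptor, a probe was 3.91 higher (SE 0.406, adjusted p = 0.00865) and the brightest was 2.12 higher. A probe of Rps6ka3, a kinase that acts downstream of ERK, was 4.15 higher (SE 0.605, adjusted p = 0.0395) with 1 of 3 sham arrays well above background, and its other probes 1.00 to 2.95 higher. Genes with a called probe differ in this respect: all probes of Selp, Vldlr, Arid5a, Clnk, Rps6ka3, Soat1 and Dhrs3 were higher, while those of Csf2rb were split. These genes were chosen after their values were seen.

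**Figure D3:**
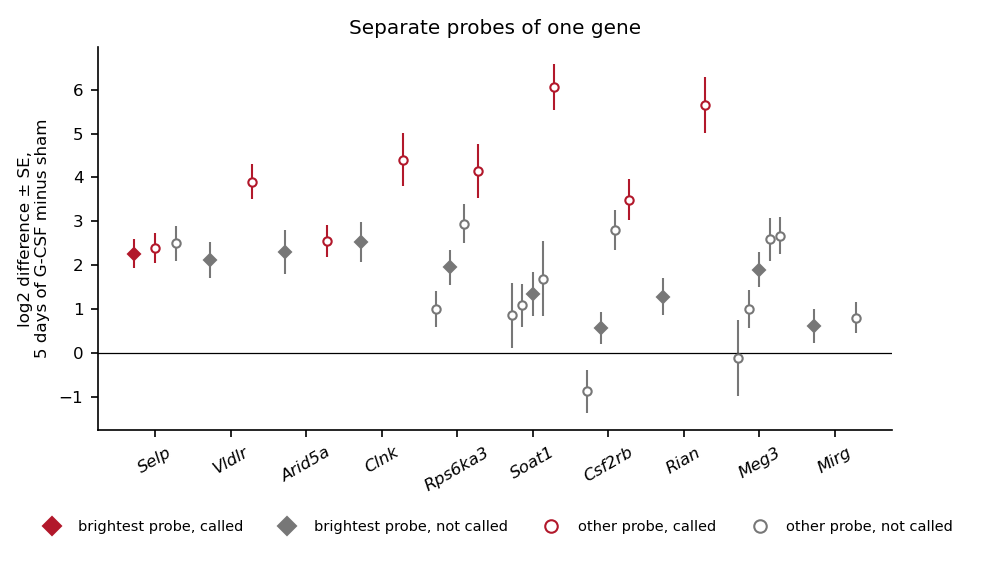
Log2 difference with its SE (5 days of G-CSF minus sham, y axis) for each tested probe of the genes on the x axis. Diamonds are the brightest probe of a gene, circles the others, and red marks a call in the probe-level fit; the highest probes of Soat1 and Clnk were at background in all sham mice, so their height is not a size. All probes of Selp lie between 2.27 and 2.50, whereas those of Csf2rb run from -0.87 to 3.50.

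No gene that fell had a symbol that met the naming rule, and the 6 that were called are named after their values were seen. The transcript Gm36283, a long noncoding RNA model, was at -3.80, -3.00 and -3.06 after 5 days of G-CSF, against 0.73, -0.40 and 0.89 in sham (chr10:107888613-107888672), and fell by 3.70 on the log2 scale (SE 0.467, adjusted p = 0.0151). The protein-coding model 2210407C18Rik was at -3.26, -3.73 and -2.87, against -1.01, -0.97 and -0.53 in sham, and fell by 2.45 (SE 0.339, adjusted p = 0.0293). These were measured well above background in all 6 mice, and without sham 1 their adjusted p was 0.0577 and 0.0509. The other 4 were not well above background on any 5-day array. They were lower at least 4.99-fold for 4930551E15Rik (adjusted p = 0.00778), 4.74-fold for the noncoding model Gm33969 (0.0117), 2.90-fold for the olfactory receptor Olfr1499 (0.0293) and 2.57-fold for an interval on chromosome 5 (109156118 to 109156422, adjusted p = 0.0483). Without sham 1 the adjusted p was 0.0796 for Olfr1499 and 0.107 for the chromosome 5 interval, which kept its call in 2 of the 12 fits that left out an array. The lower calls came with a median level of families that blood cells should lack of -3.69 ± 0.39 on the 5-day arrays and -2.78 ± 1.03 on the sham arrays (SD, n = 3 each). With that median as a covariate in the fit 17 genes were called higher and 1 lower.

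The 5 named genes with the smallest p among those lower did not pass. The phospholipase Plcz1 of sperm was at -6.65, -7.06 and -6.26, against -3.55, -3.64 and -3.89 in sham, a difference of -2.96 (adjusted p = 0.0523). Gsdmc3, of the gasdermin family, differed by -3.55 (adjusted p = 0.0546), the transcription factor Nr2e1 by -3.48 (adjusted p = 0.0959), Skint1, of epithelial gamma-delta T cell selection, by -1.82 (adjusted p = 0.0959) and the antisense transcript Unc45bos by -2.01 (adjusted p = 0.0959). Plcz1, Gsdmc3 and Nr2e1 were not well above background on any 5-day array, so their measured differences are not sizes.

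The 2-day mice were set beside the 5-day mice. The genes were chosen for their difference between 5 days and sham, so the place of the 2-day level between these is a description. Cd53 was at -5.39 ± 0.72 in sham, -0.56 ± 0.41 after 2 days and 1.67 ± 0.49 after 5 days (SD, n = 3 each). Rcvrn was at -6.03 ± 0.59, -2.68 ± 0.14 and -0.69 ± 0.42 in the same order, and Csf2rb2 at -0.14 ± 0.30, 1.36 ± 0.27 and 2.55 ± 0.09. Socs3 was at -0.23 ± 0.67, 3.15 ± 0.26 and 3.14 ± 0.30, Gadd45g at -1.10 ± 0.15, 1.45 ± 0.26 and 1.36 ± 0.44, and Borcs5 at -6.22 ± 0.44, -1.67 ± 0.77 and -2.04 ± 0.43. The 2-day and 5-day mice overlapped in Socs3, Gadd45g and Borcs5 and did not in Cd53, Rcvrn and Csf2rb2. The share of all genes without overlap between the 2-day and 5-day mice is not given here. No difference between 2 and 5 days was called in any of these genes, so they are not sorted into kinds of time course. Ddx11 was at -5.70 ± 0.22 in sham, -5.47 ± 0.49 after 2 days and -3.10 ± 0.12 after 5 days, and it was well above background only after 5 days.

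The contrast of 5 days with 2 days tests these changes directly, and limma called no gene of 33177, 0%. The 2-day arrays lay together on slide 3, which held no other group, and the 5-day arrays on slides 4, 5 and 6. Day and slide therefore cannot be told apart here. The median of the families blood cells should lack was -2.40, -2.73 and -2.60 on the 2-day arrays, above every 5-day array. At an unadjusted p under 0.05 there were 5365 (16.2%), 1149 higher after 5 days (3.46%) and 4216 lower (12.7%). With that median as a covariate there were 2139. In the fit without it, the smallest adjusted p was 0.0732, which 6 genes shared, 2 higher and 4 lower after 5 days. Those with a gene name are given after their values were seen. Zbtb8a, of the zinc finger and BTB family, had the smallest unadjusted p, and it was at -2.61, -2.49 and -3.15 after 5 days, against -6.71, -6.81 and -6.75 after 2 days. No 2-day array had Zbtb8a or Ddx11 well above background, so they were at least 3.89-fold and 3.05-fold higher after 5 days. No 5-day array had 4930551E15Rik well above background, so it was at least 3.08-fold lower (2-day levels -3.38, -3.31 and -3.27). For Cd53 the difference was 2.22 (SE 0.442), for Rcvrn 2.00 (SE 0.603) and for Csf2rb2 1.19 (SE 0.281), each with an adjusted p of 0.25. For Socs3 it was -0.01 (SE 0.387, adjusted p = 0.988) and for Gadd45g -0.09 (SE 0.301, adjusted p = 0.865). A difference between the days in Cd53 was thus not shown at this number of arrays. The 2-day difference from sham shares the sham arrays with the 5-day one. It was 4.84 after 2 days and 7.06 after 5 days for Cd53, 3.78 and 4.43 for Wfdc17, 3.38 and 3.37 for Socs3, and 2.56 and 2.47 for Gadd45g.

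**Figure D4:**
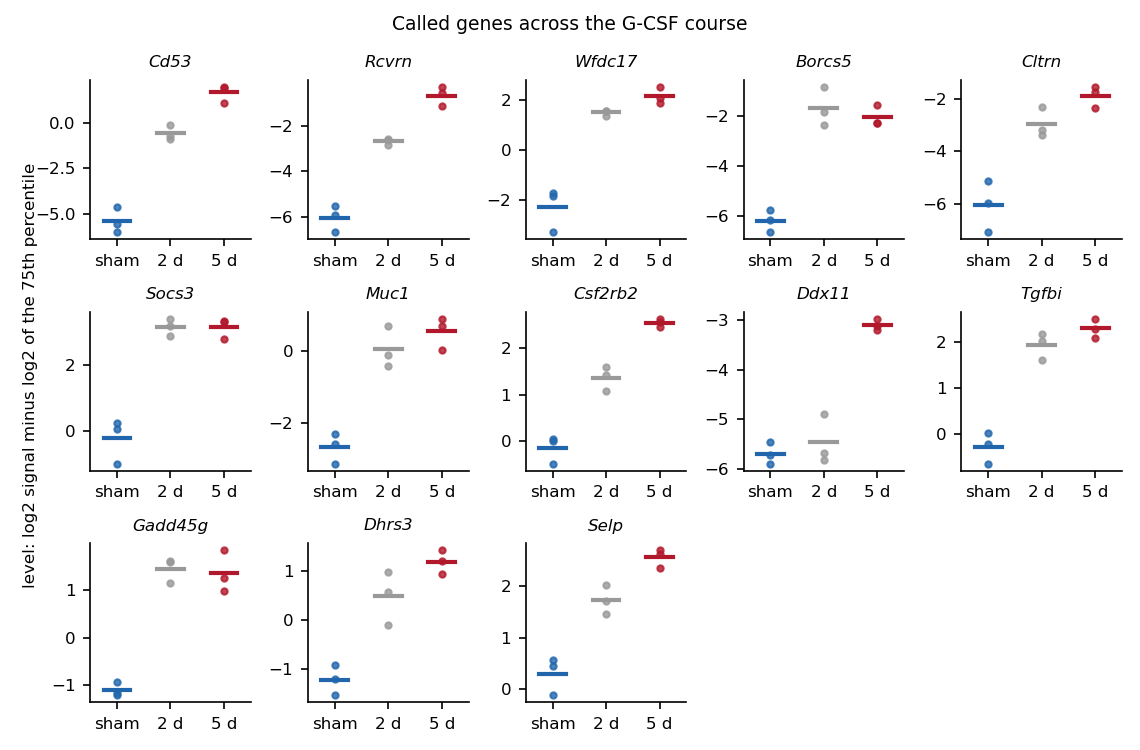
Level (y axis, log2 signal relative to the 75th percentile of the array, with its own range in each panel) of the 13 called genes with a symbol in sham mice, after 2 days and after 5 days of G-CSF; points are mice and bars are means of 3. Socs3, Gadd45g and Borcs5 have 2-day means at or above their 5-day means, and Ddx11 is near its sham level at 2 days.

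The 30 gene lists described next were chosen with earlier results of these data known, 18 of pathways and 12 of cell types. Their medians stand beside the median of all genes, -0.13 with all arrays and -0.04 without sham 1. The median lay above that of all genes in 26 of the 30 lists with all arrays and in 16 without sham 1. It was above 0 in 19 lists with all arrays and in 12 without sham 1, so the sign of many lists rested on that array.

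Among 33 tested genes of the G-CSF receptor, JAK-STAT and feedback list, Socs3 rose and no gene fell. At an unadjusted p under 0.05 there were 7 higher, Socs3, Pim2, Hp, Il6st, Bcl3, Cebpd and Pim1, and Csf3r was lower, against 3.23% higher and 7.89% lower over all genes. The kinases Pim1 and Pim2, which STAT factors induce, differed by 1.04 (SE 0.387) and 2.42 (SE 0.633) with adjusted p of 0.385 and 0.289. Il6st, the gp130 receptor chain, differed by 1.5, the nuclear factor Bcl3 by 1.09, the myeloid transcription factor Cebpd by 2.47 and the haemoglobin scavenger Hp by 3.06, and none passed. The median of the list was 0.40, and -0.02 without sham 1, when Pim2 differed by 1.51 and Pim1 by 0.55.

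Of 41 tested genes of the CXCR4 axis, adhesion and retention, Selp rose. Itga2b, the platelet and early stem cell integrin, Cxcl12 and Itgb3 were higher at an unadjusted p under 0.05, and none was lower, against 3.23% and 7.89% of all genes. Cxcr4 was at 2.43, 2.86 and 2.74 in treated mice, against 1.36, 3.79 and 3.47 in sham. The treated mice lay between sham 1 and the other shams, and the difference was -0.20 (SE 0.541, adjusted p = 0.896) and -0.96 without sham 1. Its ligand Cxcl12, made by niche cells, was at 2.94, 1.03 and 2.62, against -0.48, -0.75 and -1.54 in sham, 3.12 higher (SE 0.942, adjusted p = 0.328). Treated mouse 2 was well below the other treated mice, and the groups did not overlap.

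The list of stroma, adipocyte and osteoblast markers had the largest median of the 30, 0.55, and 0.83 without sham 1, and no member passed the test with all arrays. Of its 34 tested members 8 were higher at an unadjusted p under 0.05, Pdgfrb, Ebf3, Adipoq, Hp, Sparc, Cxcl12, Col1a2 and Dcn, and Angpt1 was lower, against 3.23% and 7.89% of all genes. Pdgfrb, a receptor of perivascular cells, was at 0.62, -0.04 and -0.10 after 5 days of G-CSF, against -6.01, -3.58 and -2.46 in sham, 4.18 higher (SE 0.688, adjusted p = 0.0720). Without sham 1 it was 3.18 higher and its adjusted p was 0.0278. The niche cell factor Ebf3, at background in all 3 sham mice, was at least 5.84-fold higher (adjusted p = 0.113). The adipocyte hormone Adipoq was 3.46 higher on the log2 scale (SE 0.873) and the matrix protein Sparc 3.17 (SE 0.951). Angpt1, a ligand that keeps stem cells quiet and that they also make, was at 2.74, 2.88 and 2.55, against 4.52, 3.76 and 3.85 in sham, a difference of -1.32 (SE 0.301, adjusted p = 0.194). The summed signal of the list ran from 56.4 to 117 on the 5-day arrays and from 55.8 to 89.5 on the sham arrays, so the groups overlapped. On the 5-day arrays 32 of the 34 members were well above background in all 3 mice, on the sham arrays 27. The part of such cells in the Cxcl12 values was not tested.

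Markers of stem cells themselves gave no call. Among the 40 tested stem cell identity genes Cd34 and Cd27 were higher at an unadjusted p under 0.05, and Fgd5, Eya1 and Msi2 were lower. The list had a median of 0.02, and -0.37 without sham 1, and its summed signal ran from 267 to 350 on the 5-day arrays and from 389 to 535 on the sham arrays. Cd34, a marker of progenitors and of active stem cells, was at 1.83, 1.77 and 1.38 after 5 days of G-CSF, against -0.82, 1.02 and 0.67 in sham, 1.37 higher (SE 0.457, adjusted p = 0.349) and 0.82 without sham 1. Fgd5, which marks stem cells, was at -2.61, -1.70 and -2.58, against -1.44, -0.86 and -1.46, a difference of -1.04 (SE 0.347, adjusted p = 0.348). Procr (the protein C receptor) differed by -0.43 (SE 0.507), Flt3, a receptor of multipotent progenitors, by 0.09 (SE 0.306), Kit by -0.37 (SE 0.260), Slamf1 by 0.62 (SE 0.733) and Cd48 by 0.33 (SE 0.390). Without sham 1 the difference of Ly6a was 0.15 in place of 1.05, and that of Slamf1 was -0.36.

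The cell cycle lists were higher in their medians and gave no call. The S phase list of 49 genes had a median of 0.35, and -0.03 without sham 1, and the G2/M list of 45 genes 0.36 and 0.25. Kif2c, a kinesin of the mitotic spindle, was at 1.35, 1.23 and 0.89 in treated mice, against -0.13, -0.35 and 0.39 in sham, 1.19 higher (SE 0.340, adjusted p = 0.320), and Ndc80, of the kinetochore, differed by -0.88 (adjusted p = 0.413). Clspn, a checkpoint adaptor at forks, was 1.30 higher and Prim2, a primase subunit, differed by -0.92. Mki67, the usual proliferation marker, was at 1.18, 1.11 and 0.77, against 0.70, 0.23 and 0.54, 0.53 higher (SE 0.399, adjusted p = 0.605). In the list of quiescence and cell cycle brakes Gadd45g was the only call among 30 genes. The imprinted inhibitor Cdkn1c was at 0.45, -0.26 and -0.15, against 0.43, 1.84 and 1.92 in sham, a difference of -1.39 (SE 0.412, adjusted p = 0.328), with sham 1 inside the range of the treated mice.

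In the list of early response genes Gadd45g was again the only call, the median of 33 genes was 0.24, and 0.21 without sham 1, and the ERK phosphatase Dusp6 differed by -1.35 (SE 0.433, adjusted p = 0.347). Of the 39 genes of MYC and ribosome biogenesis 36 were higher with a median of 0.38, and 0.12 without sham 1. The share of all genes that were higher is not given here. The median level of the list was -0.07 in sham 1, against 1.23 and 1.18 in shams 2 and 3. On the 5-day arrays it ran from 1.15 to 1.49. With the median of the families blood cells should lack as a covariate, the median difference of the list was -0.02. The nucleolar protein Nolc1 was 0.92 higher (SE 0.342, adjusted p = 0.386). The unfolded protein response had a median of 0.33, and -0.04 without sham 1, with Trib3, a pseudokinase of that response, at -1.05 (SE 0.318, adjusted p = 0.328). Chac1, an enzyme that degrades glutathione, stayed at background in all 3 sham mice and was at least 1.60-fold higher (adjusted p = 0.350). Glycolysis and hypoxia genes had a median of 0.23, and -0.08 without sham 1, and the stress gene Ndrg1 was 2.03 higher (SE 0.519, adjusted p = 0.269), 1.33 without sham 1. The p53 targets (median 0.22), respiratory chain (0.19), BCL2 family (0.10), cytosolic ribosomal proteins (-0.08) and cholesterol synthesis (-0.11) gave no call and at most 1 gene at an unadjusted p under 0.05. Without sham 1 these medians were -0.06, -0.25, 0.10, -0.36 and -0.22 in the same order, and with arrays centred on their median those of ribosomal proteins and cholesterol synthesis were 0.07 and 0.05. The Toll-like receptor and NF-kB list had a median of 0.17, and 0.06 without sham 1, with the adaptor Myd88 2.24 higher (SE 0.778, adjusted p = 0.367) and the chemokine Cxcl2 at -1.09 (SE 0.436, adjusted p = 0.401).

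Among 37 tested genes of the type I interferon response 17 were higher and 20 lower. At an unadjusted p under 0.05, 5 were lower, Rsad2, Trim25, Isg15, Ifit3 and Mx2, and Ifi204 was higher, against 7.89% and 3.23% of all genes, and none was called. Rsad2 (viperin) was at 1.58, 1.38 and 1.34 after 5 days of G-CSF, against 2.04, 2.05 and 2.08 in sham, a difference of -0.63 (SE 0.251, adjusted p = 0.399). The shams lay close together and above every treated mouse. Isg15 differed by -0.79 (SE 0.324) and Ifit3 by -1.24 (SE 0.547). The summed signal of the list was at most 137 on the 5-day arrays and at least 157 on the sham arrays. This separation was not particular to the interferon list. Sums were also lower on every 5-day array for stem cell identity, dendritic, and mast cell and basophil genes. They were higher on every 5-day array for primary granule genes. Whether so many separated lists exceed what 3 against 3 arrays would give was not tested. The median was -0.03, and -0.28 without sham 1, but 0.13 with arrays centred on their median. The list of MHC and interferon gamma genes had a median of -0.11, -0.44 without sham 1 and 0.04 with arrays centred on their median, with the class II chain H2-Aa at -1.31 (SE 0.508, adjusted p = 0.395) and the chemokine Cxcl9 3.52 higher (SE 1.00, adjusted p = 0.317), well above background on only 1 sham array.

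The cell type lists, which hold markers of cells that a sort could carry along, gave 2 calls, Wfdc17 of the macrophage list and Selp of the megakaryocyte list. The megakaryocyte and platelet list of 25 genes had 6 higher at an unadjusted p under 0.05, Selp, Gata1, Itga2b, Gp1ba, F2rl2 and Itgb3, and Gp5 and Thbs1 lower, with a median of -0.01, -0.13 without sham 1 and 0.14 with arrays centred on their median, against 3.23% higher and 7.89% lower over all genes. Its summed signal ran from 53.5 to 58.5 on the 5-day arrays and from 32.7 to 57.8 on the sham arrays. Gata1, which drives erythroid and megakaryocyte genes, was at 2.24, 2.23 and 1.85 in treated mice, against 0.11, 0.67 and 0.41 in sham, 1.71 higher (SE 0.361, adjusted p = 0.164), and it was 1.57 higher without sham 1. Prtn3, the proteinase of primary granules, was at 1.90, 2.12 and 1.47, against -0.86, 0.58 and 0.95, 1.61 higher (SE 0.426, adjusted p = 0.296), and Csf2ra, the alpha chain of the GM-CSF receptor, was at 1.20, 1.43 and 1.33, against 2.33, 1.92 and 2.34, a difference of -0.88 (SE 0.266, adjusted p = 0.330). S100a9, a protein of mature neutrophils, ranged from -5.77 to 1.80 among the sham mice and from -0.12 to 1.13 among treated mice. The medians of the other cell type lists were 0.19 for primary granule (0.20 without sham 1), 0.15 for mature neutrophil (0.33), 0.17 for lymphoid priming (0.25) and 0.00 for sinusoidal endothelium genes (-0.51). They were -0.31 for T and NK (-0.10 without sham 1), -0.51 for dendritic (-0.32) and -0.10 for erythroid genes (-0.09). The sign turned without sham 1 for macrophage genes, -0.02 and then 0.16, for B lymphoid genes, -0.18 and then 0.07, and for mast cell and basophil genes, -0.34 and then 0.20. With arrays centred on their median the macrophage and erythroid medians were 0.13 and 0.05.

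**Figure D5:**
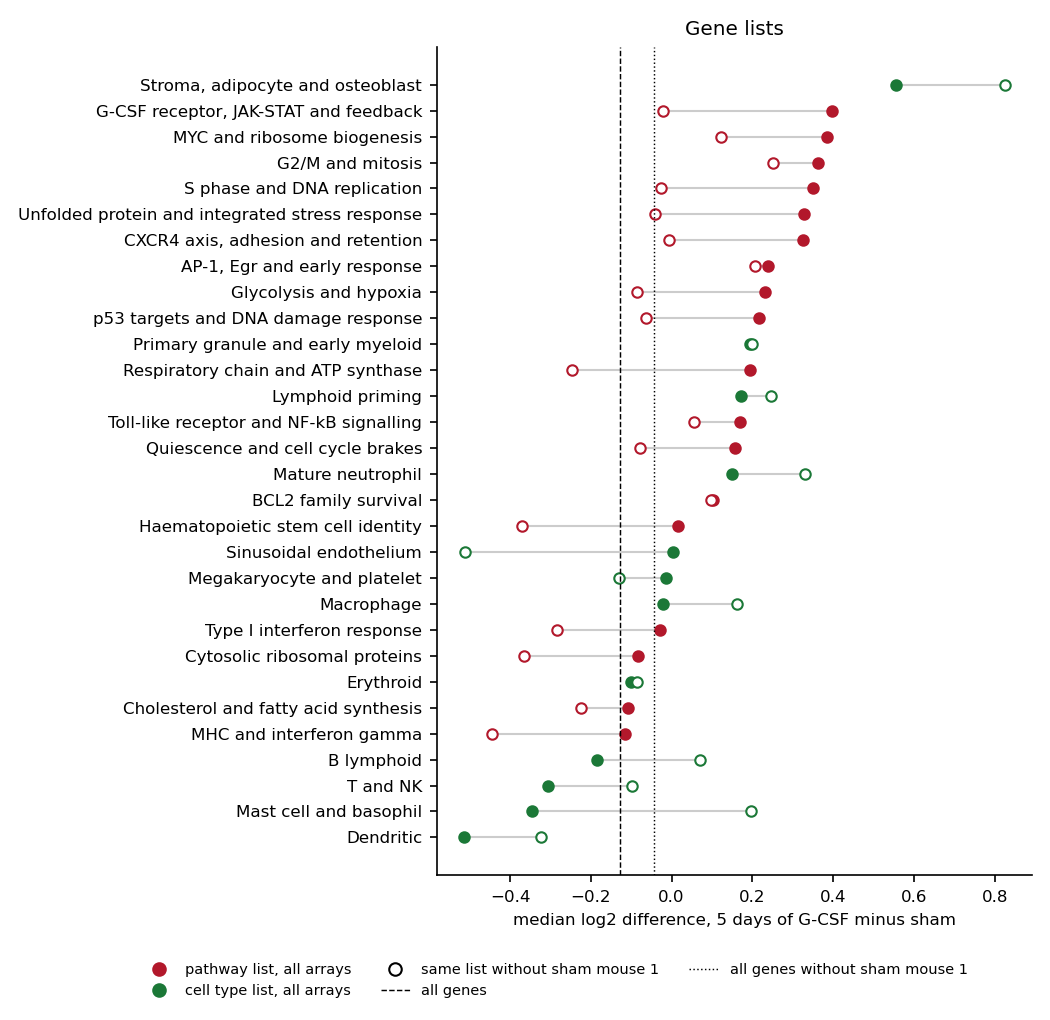
Median log2 difference (5 days of G-CSF minus sham, x axis) of the tested members of each of 30 gene lists, with all arrays (filled) and without sham mouse 1 (open), and the same medians for all genes as dashed and dotted lines. The stroma list moves from 0.55 to 0.83 without sham mouse 1, while the G-CSF receptor list moves from 0.40 to -0.02.

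Abca4, a lipid flippase of photoreceptors, was on the list of genes to be described and missed the threshold. It was at 0.57, 0.74 and 0.46 after 5 days of G-CSF, against -2.60, -3.60 and -1.78 in sham, 3.25 higher (SE 0.507, adjusted p = 0.0562), with no overlap. Of its other tested probes, 1 was 2.29 higher (SE 0.369, adjusted p = 0.0607) and 1 differed by -1.90 (SE 0.710).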

How the data were processed

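RNA of sorted stem cells from 12 mice was measured on Agilent arrays of 1 colour, 62976 spots each. Per the file headers, the deposited intensity values had their background subtracted and were spatially detrended by Agilent Feature Extraction, whose version is 11.5.1.1 per the submitters' processing notes. The authors' deposited table of processed intensities, 49665 probes, was put on the log2 scale and served only as an alternative. For some mice its columns matched the scanner file of another mouse of the same group. Control spots (59305 others remained) and outlier spots were left out, repeated spots were averaged, and log2 intensity was taken minus each array's 75th percentile. Probes had to pass the scanner software's background test on 3 or more of the 12 arrays to be tested, and the brightest probe stood for its gene. Of 56605 probes, 33895 were named through their accession, 9953 through a symbol or synonym and 12757 by the name in the file alone. limma 3.58.1 (R 4.3.3) fitted group means over all 12 arrays, which limits the precision to 3 mice per group, with Benjamini-Hochberg adjustment over all genes and two-sided tests at 0.05; an exact permutation test of 3 against 3 mice cannot go below p = 0.1. In a simulation of the comparison of 5 days with sham, 50 genes were planted at each log2 difference of 1, 2, 3 and 4. The fit called 2%, 20%, 60% and 84% of them, in that order, and 11 calls were false. Most differences of 1 or 2 would thus be missed, so the lack of a call is not evidence of no difference.

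The text names up to 10 called genes with a symbol per direction by size and by p, the 5 smallest p where a direction had none, the extreme members of each gene list and 20 listed genes. Members, lists and these genes were chosen with earlier results of these data known. Alternatives covered normalization, background, scaling, filters, blocks, weights, probe choice and each array left out. Probe coordinates come from the array design (mm9); no annotation of that build was used, so exons and introns are not stated. Promoter sequences are RefSeq's, on GRCm38.p6. Some genes are not reported here.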

Additional observations from a re-analysis of the deposited data

How the results depend on the processing

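Against 16 genes higher and 6 lower, counts of calls moved by over 1.5 times in at least one direction as follows, given as higher and lower: quantile normalization 22 and 11 (66.7% higher), normexp background correction 17 and 2 (89.5%), probes well above background on all 12 arrays 10 and 2, the fit on the 6 arrays alone 1 and 0, slide as a fixed block 0 and 0 (2489 genes at an unadjusted p under 0.05), the median of off-tissue families as a covariate 17 and 1 (94.4%), array weights 28 and 13, trended robust variance 14 and 1, and the mean of all probes of a gene 26 and 9. With the off-tissue covariate 11 of the 22 calls were kept. Median scaling gave 22 and 5. Each probe as its own feature, chosen after seeing the data, gave 28 and 8. Mouse numbers did not pair the samples (correlations of same-numbered mice -0.20, 0.25 and -0.31), and with the replicate block 10 were higher and 4 lower. Leaving out 1 array gave 1 to 33 higher and 0 to 22 lower; the extremes were those without 5-day mouse 2 and without sham 3. For 5 days against 2 days, quantile normalization gave 3 calls, array weights 5004, and leaving out 1 array 0 to 14, the highest without sham 1. The cause was not tested, apart from fewer arrays or probes where the setting itself removes them. Scan and slide coincided, so scan was not run as a separate block. Among 12 named called genes, 240 of 319 alternative values kept the call, 79 lost it and 0 reversed; Cd53 lost it only with slide as a fixed block. Among named genes not called, 21 of 1842 values passed, in Plcz1, Gsdmc3, Pdgfrb and Abca4. Signals near background limit 10 of the 22 calls to bounds.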
